A study of Drosophila melanogaster with 30 samples.

Results

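The genes of the cytosolic ribosome were taken as every gene whose symbol in the count files begins with RpL (large subunit) or RpS (small subunit), leaving out the mRp genes of the mitochondrial ribosome. This rule found 92 of the 17471 genes, 54 RpL and 38 RpS. RNA was measured in pools of 100 whole heads of *Drosophila melanogaster* females 3 to 7 days old, from an outbred population founded by intercrossing inbred lines of the *Drosophila* Genetic Reference Panel. The lines had been selected in a T-maze for attraction (+) or aversion (-) to 2,3-butanedione (BUT) or cyclohexanone (CYC), and the control lines came from the same population and were kept without selection. With BUT+, BUT-, CYC+, CYC- and control there were 5 treatments, each with 3 replicate lines, and 2 biological samples of each line, here called the first and the second sample, which makes 30 libraries. Selection was applied to lines, so the 2 samples of a line share its history, and a pool of heads mixes brain, eye, antenna, fat body and muscle. In such a mixture, fewer cells of a type and less RNA per cell cannot be told apart.

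The cytosolic ribosome is built from a small subunit, which reads the mRNA, and a large subunit, which joins amino acids. Ribosomal protein genes are among the most highly expressed genes of growing and differentiated cells, they are known for being regulated together, and loss of a single copy of many of them gives the *Minute* phenotype of slow development and short bristles in *Drosophila*. Most of these proteins are encoded by a single gene in the fly, and some have a paralog whose expression is often restricted to the germ line. A few genes that carry a ribosomal name make proteins of ribosome assembly instead, among them *RpL24-like* and *RpLP0-like*.

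Library totals ranged from 21194086 to 38621924 counts, with medians of 27846591 in the first and 35029659 in the second samples. Markers of the head were present in every library, neuron (*elav*, *nSyb*, *brp*, *Syt1*), photoreceptor (*ninaE*, *norpA*, *trp*, *chp*), glia (*repo*, *nrv2*, *Eaat1*, *Gs2*) and antenna (*Orco*, *Obp83a*, *Obp83b*, *lush*), with the lowest single value at 35.5 CPM, the count relative to the library's total, with totals scaled by the trimmed mean of M-values (TMM), for *lush*. The 5 germline markers summed to between 0.483 and 5.79 CPM, and the larval fat body gene *Fbp1* and the flight muscle gene *TpnC4* were near 0. The first sample of CYC+ line 1 stood apart for ribosomal protein genes, as described next, and the results that change with it are also given without it.

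Together the 92 genes took between 6.06% and 10.7% of a library's gene counts. The control lines had 7.83% ± 0.974 (SD, n = 3 lines), BUT+ 7.48% ± 0.705, BUT- 7.19% ± 0.597, CYC+ 7.94% ± 0.542 and CYC- 7.34% ± 0.0895. Control libraries ranged from 6.06% to 8.99% around a median of 8.03%, in BUT+ from 6.96% to 8.47% (median 7.12%) and in BUT- from 6.26% to 7.73% (median 7.38%). The CYC+ libraries lay between 6.34% and 10.7% (median 7.63%), those of CYC- between 6.93% and 7.84% (median 7.34%). All treatments overlapped, and the control lines alone, at 8.69%, 8.03% and 6.77%, were spread over more than the distance between any treatment means.

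**Figure D1:**
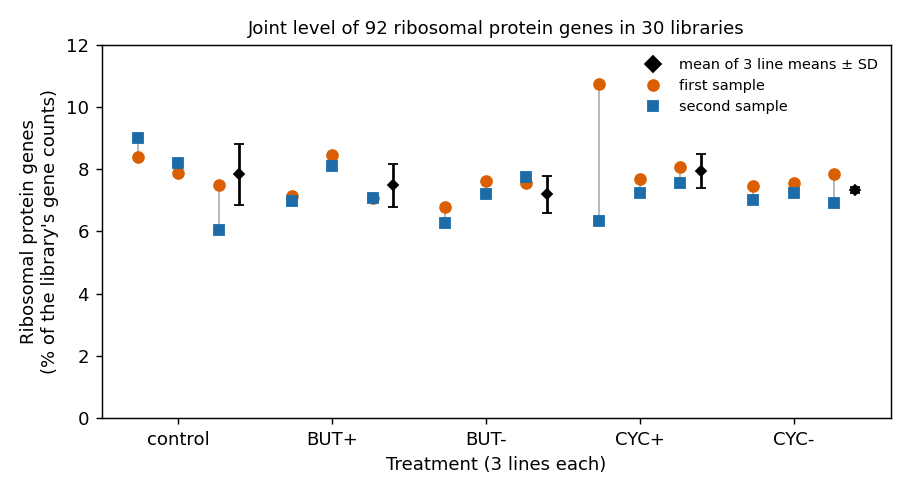
Percentage of each library's gene counts in the 92 ribosomal protein genes, by treatment, with the first (circle) and second (square) sample of a line joined and the mean of the 3 line means with its SD as a diamond. The first sample of CYC+ line 1 lies at 10.7%, while the other 29 libraries lie between 6.06% and 8.99%.

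The highest library was the first sample of CYC+ line 1, at 10.7% against 6.34% in the second sample of the same line, and the other 5 CYC+ libraries lay between 6.34% and 8.08%. Without it the CYC+ mean was 7.21% ± 0.771 (SD, n = 3 lines), below the control's 7.83% instead of above it. Of the 83 ribosomal protein genes that passed the low-count filter (at least 1 CPM in at least 15 libraries), 72 had their highest value of all 30 libraries there (86.7%, against 20.8% of the other tested genes). The first sample of this line exceeded the second by a median of 1.75-fold over the 83 genes, from 0.938-fold for *RpLP0-like* to 2.82-fold, while the other tested genes had a median of 1.01-fold. Other genes with up to 1000 bp of exon had a median of 1.18-fold and longer ones 0.986-fold. The 4 neuron markers summed to 1570 CPM in this library, against 1966 to 2762 in the rest, and the 4 glia markers to 2361 CPM against 2417 to 3002. The muscle markers, at 1981 CPM, were also the lowest of all libraries (2010 to 3877 in the rest), while the photoreceptor markers, at 42551 CPM, were near the highest library (44317). What set this library apart was not tested.

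Within the set, expression per kilobase of exon ran from 22.1 to 2840 CPM per kb among the 83 tested genes, with a median of 1048 and a middle 50% between 731 and 1255. The highest were *RpL41* (2840 CPM per kb), which encodes a very short basic peptide of the large subunit, *RpL27A* (2045) and *RpL39* (1863), both of the large subunit. The lowest were the assembly factor gene *RpLP0-like* (22.1), *RpS15Ab* (36.1) and *RpL34a* (195), the last 2 of which are minor members of paralog pairs. Exon length here is the union of annotated exons, so genes with long alternative ends are understated.

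The tested genes moved together from library to library. The correlation of each gene's log2 CPM with the mean of the other 82 over the 30 libraries, which share depth and normalization within a library, had a median of 0.946, and 61 of the 83 were at 0.9 or above. It was lowest for *RpLP0-like* (0.119), *RpL22* (0.450), *RpL24-like* (0.565) and *RpS15Ab* (0.572), the only 4 under 0.6, and *RpL38* followed at 0.668. Without the first sample of CYC+ line 1 the median was 0.931, and *RpLP0-like* was at 0.338, *RpL22* at 0.361 and *RpL24-like* at 0.316.

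To ask whether selection changed these genes, each selected treatment was compared with the control and with its opposite. In BUT+ *vs.* control no ribosomal protein gene was called, where 2.99% of all tested genes were. Calls rest on the quasi-likelihood test of edgeR, adjusted by Benjamini-Hochberg over 9240 genes with the threshold set at 0.1. Of the 83, 0 had an unadjusted p under 0.05, against 14.7% of all tested genes. The median log2 fold change of the 83 was -0.03, and 60 of them lay below 0. Over all tested genes the median was -0.0106, with 54.1% below 0. The medians that follow are those of the 83. With a BUT+ line left out the median was 0.01 (line 1), -0.10 (line 2) or 0.00487 (line 3). DESeq2 and limma's voom also called 0.

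In BUT- *vs.* control none was called, where 4.7% of all tested genes were. Of the 83, 6 (7.23%) had an unadjusted p under 0.05, against 16.2% of all tested genes. The log2 fold changes had a median of -0.11 beside 0.00333 over all genes, and 79 of the 83 were below 0, none past the threshold. Without BUT- line 1 the median was -0.02 and 53 were below 0, and without BUT- line 3 it was -0.17 with 81 below 0. The smallest adjusted p-values by edgeR were those of *RpL38*, of the large subunit (-0.32, SE 0.11, adjusted p = 0.144) and *RpL24-like* (-0.35, SE 0.13, adjusted p = 0.145). *RpL38* was between 299 and 378 CPM in the 6 BUT- libraries (median 353), and between 373 and 525 in the 6 control libraries (median 429). Those ranges overlapped by a narrow margin. A fit of only the 12 libraries compared called both genes (adjusted p = 0.0739 for *RpL38* and 0.0821 for *RpL24-like* by edgeR), DESeq2 called *RpL24-like* alone (adjusted p = 0.0968), and voom called 0. Without the first sample of CYC+ line 1, edgeR called *RpL24-like* (adjusted p = 0.0260). Here and in the next treatment comparisons, shares of all tested genes are those of the main fit. Those of the other fits named beside it are not given, so single calls there have no background.

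In BUT+ *vs.* BUT- none was called, against 0.66% of all tested genes. Of the 83, 0 had an unadjusted p under 0.05, against 9.89% of all tested genes. Over all tested genes the median log2 fold change was -0.0124, while those of the 83 were above 0 in 82, with a median of 0.09. This direction rested on single lines: without BUT- line 1, whose libraries had joint levels of 6.77% and 6.26%, the median was -0.000577 with 41 above 0, and without BUT+ line 2, at 8.47% and 8.11%, it was 0.01 with 54 above 0. DESeq2 and voom called 0.

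In CYC+ *vs.* control none was called, against 7.02% of all tested genes. Of the 83, 2 (2.41%) had an unadjusted p under 0.05, against 20.1% of all tested genes. These 2 were *RpL10* (-0.22) and *RpL24-like* (0.28, SE 0.13, adjusted p = 0.216 by edgeR). The median log2 fold change was -0.04, with 64 of 83 below 0, beside a median of 0.00937 over all tested genes. The percentage of counts put CYC+ above the control (log2 ratio 0.02) while the mean log2 TMM CPM put it below (-0.05). Without the first sample of CYC+ line 1 the median was -0.15, 80 of 83 were below 0 and 1 gene was called, *RpL34a* (-0.28, adjusted p = 0.0633 by edgeR). Without the whole of CYC+ line 1 it was -0.10, without line 2 0.01 and without line 3 -0.02. From the first samples alone the median was 0.11 and from the second samples alone -0.20. DESeq2 and voom called 0 with all libraries. Some markers of other tissues were called lower in CYC+. They were the yolk protein genes *Yp1* (-0.88) and *Yp2* (-0.91), the antennal gene *Obp83b* (-0.25) and the gut protease gene *Jon65Aiv* (-3.25). Called were thus 2 of 3 tested fat body, 1 of 4 antenna and 1 of 3 tested gut markers. The medians of these lists were -0.913, -0.00667 and -2.95. The part of these markers in the values of the ribosomal protein genes was not tested.

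In CYC- *vs.* control none was called, against 3.74% of all tested genes. Of the 83, 2 (2.41%) had an unadjusted p under 0.05, against 14.5% of all tested genes. These 2 were *RpS2* (-0.29) and *RpS16* (-0.35), both of the small subunit. The median log2 fold change was -0.13 and 80 of 83 were below 0, beside a median of 0.00348 over all tested genes. DESeq2 and voom called 0. The antennal gene *Obp83b* fell here too (-0.21, edgeR adjusted p = 0.0723). It was the 1 called of 4 antenna markers, whose median was -0.0662. The part of *Obp83b* was not tested. From the second samples alone, *RpL38* was called (-0.35, adjusted p = 0.0600 by edgeR). Without CYC+ line 1, whose libraries are part of the same fit, *RpS2* was called (-0.29, adjusted p = 0.0935 by edgeR), and the reason was not tested. The comparisons against the control share the same 6 control libraries. Without control line 1, the line with the highest ribosomal protein share, the medians were 0.04 in BUT+, -0.04 in BUT-, 0.03 in CYC+ and -0.05 in CYC-, so that those of BUT+ and CYC+ lay above 0. Without control line 3, the line with the lowest share, they were -0.13, -0.20, -0.12 and -0.22 in the same order, with 81, 83, 81 and 82 of the 83 genes below 0. Without control line 2 they were -0.00213, -0.08, -0.01 and -0.10.

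In CYC+ *vs.* CYC- none was called, against 1.54% of all tested genes. Of the 83, 2 (2.41%) had an unadjusted p under 0.05, against 14.7% of all tested genes. These 2 were the assembly factor genes *RpLP0-like* (log2 fold change -0.24, SE 0.08, adjusted p = 0.137 by edgeR) and *RpL24-like* (0.39, SE 0.13, adjusted p = 0.153 by edgeR). DESeq2 called both, with adjusted p-values of 0.0787 and 0.0833. Over all tested genes the median log2 fold change was 0.00709. Over the 83 genes the median was 0.09, with 74 above 0, and without the first sample of CYC+ line 1 it was -0.02, with 31 above 0. Without the whole line it was 0.03, with 65 above 0. The difference between regimes, (BUT+ minus BUT-) minus (CYC+ minus CYC-), was called in 0.53% of all tested genes and in none of the 83. For this difference 0 of the 83 had an unadjusted p under 0.05, against 9.04% of all tested genes. DESeq2 and voom called 0 for it.

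**Figure D2:**
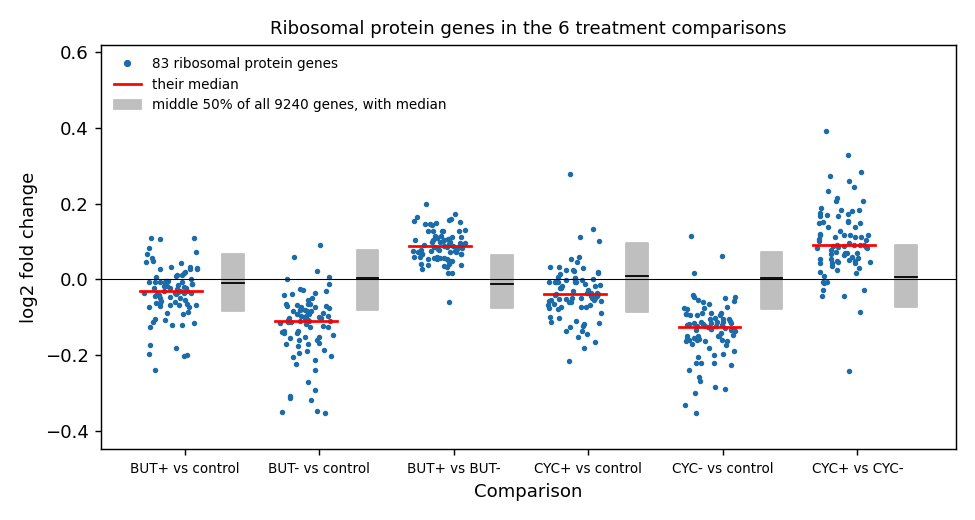
Log2 fold changes of the 83 tested ribosomal protein genes (points, with their median in red) in the 6 comparisons, beside the middle 50% and median of all 9240 tested genes (grey). The medians are -0.11 for BUT- and -0.13 for CYC- against the control, and no point passed the threshold in any of the 6.

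The 2 samples of each line were compared next. The ribosomal protein share was lower in the second sample in 12 of 15 lines, with a mean difference of -0.589 percentage points ± 1.16 (SD, n = 15 lines) and a median of -0.424. It was lower in all lines of BUT+, CYC+ and CYC-, in 2 of 3 BUT- lines and in 1 of 3 control lines. The lines in which it was higher were control line 1 (8.39% and then 8.99%), control line 2 (7.87% and then 8.20%) and BUT- line 3 (7.56% and then 7.73%). The largest falls were in CYC+ line 1 and in control line 3 (7.49% and then 6.06%). Without CYC+ line 1 the mean difference was -0.319 ± 0.506 (n = 14 lines), lower in 11. By the study's methods, collection was spread over several days in randomized order, and whether sample number marks a day or a batch is not given in the sources used here.

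In a fit with line and sample number, 55 of the 83 genes fell from the first to the second sample and none rose, by edgeR's quasi-likelihood test at an adjusted p under 0.1, against 13.7% of all tested genes called lower. The share among ribosomal protein genes was 66.3%. All 83 log2 fold changes were below 0, from -0.31 to -0.02 with a median of -0.15, while the median over all genes was 0.00526. Of the RpL genes 33 of 50 were called and of the RpS genes 22 of 33. DESeq2 called 65 of the 83, again all lower. At an adjusted p under 0.05 edgeR called 36. Without the first sample of CYC+ line 1 it called 52, all lower and all among the 55, with a median of -0.11 over the 83. The 13.7% belongs to the main edgeR fit at an adjusted p under 0.1. Shares of all tested genes under these other settings are not given here.

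**Figure D3:**
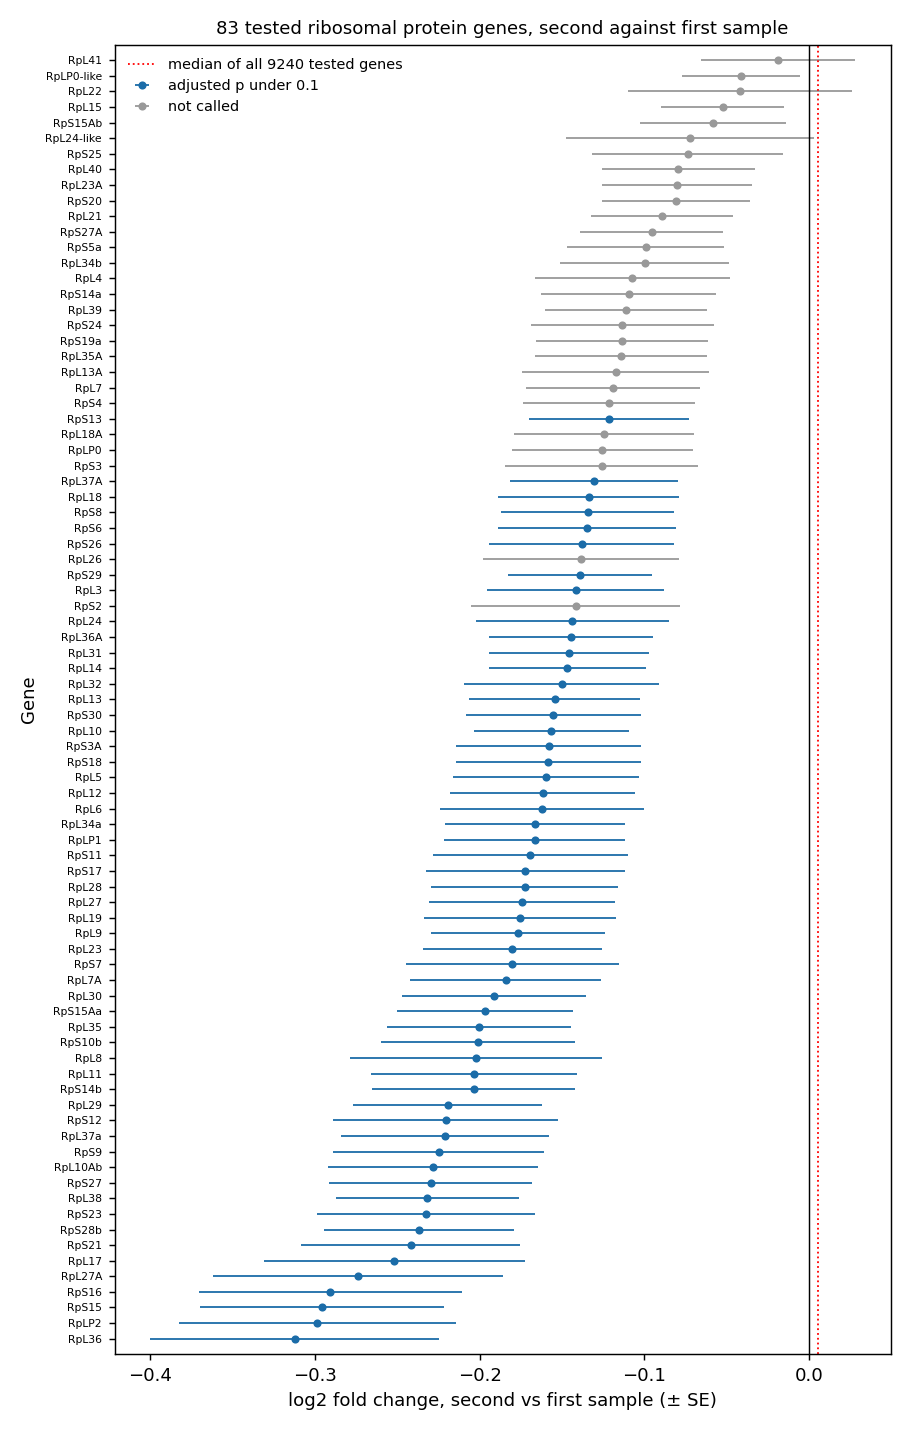
Log2 fold change of each of the 83 tested ribosomal protein genes between the second and the first sample, with its SE, in colour where the adjusted p was under 0.1 (55 genes) and grey where it was not (28 genes). All values are below 0, from -0.31 to -0.02, and the dotted line is the median of all tested genes at 0.00526.

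The smallest adjusted p-values belonged to *RpL38*, *RpS28b*, *RpS15*, *RpL29*, *RpS27* and *RpS15Aa*, structural proteins of both subunits. *RpL38* (chromosome 2R, 4515388 to 4516458 in the release 6 annotation) was between 350 and 551 CPM in the first samples, with a median of 413, and between 299 and 453 in the second, with a median of 355. It was lower in the second sample of 13 of 15 lines (log2 fold change -0.23, SE 0.06, edgeR adjusted p = 0.00755). *RpS28b* (X chromosome, 9554623 to 9555661), a small-subunit protein with a pair of minor paralogs, went from a median of 739 CPM (627 to 1119) to 652 (559 to 878), lower in 15 of 15 lines (-0.24, SE 0.06, edgeR adjusted p = 0.00838). *RpS15* (2R, 16570112 to 16571230), of the small subunit, went from a median of 1131 CPM (903 to 2017) to 923 (774 to 1377), again lower in 15 of 15 lines (-0.30, SE 0.07, edgeR adjusted p = 0.00956). The ranges of first and second samples overlapped for all 3 genes, and the difference lay within lines. *RpL29* (2R, 21293768 to 21294404) had a median of 379 CPM (298 to 566) in the first and 318 (274 to 380) in the second samples. It was lower in 15 of 15 lines (-0.22, SE 0.06, edgeR adjusted p = 0.0124). *RpS27* (3R, 25245955 to 25247514) went from 586 (488 to 837) to 495 (420 to 673), lower in 12 lines (-0.23, SE 0.06, edgeR adjusted p = 0.0145). *RpS15Aa* (X, 13335637 to 13337705) went from 857 (766 to 1213) to 747 (675 to 904), lower in 14 lines (-0.20, SE 0.05, edgeR adjusted p = 0.0152). The ranges of first and second samples overlapped for these 3 as well. The steepest log2 fold changes were those of *RpL36* (-0.31) of the large subunit and *RpLP2* (-0.30) of the stalk, named after their values were seen.

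Members with particular roles were also read, chosen after their values were seen. The stalk of the large subunit, which recruits elongation factors, is made of RpLP0, RpLP1 and RpLP2. *RpLP2* went from a median of 1003 CPM (620 to 1701) in the first to 884 (501 to 1345) in the second samples (edgeR adjusted p = 0.0190), and *RpLP1* from 1109 (875 to 1451) to 943 (826 to 1334), a log2 fold change of -0.17 (edgeR adjusted p = 0.0418). *RpLP0*, the base of the stalk, was not called (-0.13, edgeR adjusted p = 0.120). The fusions of ubiquitin with a ribosomal protein, *RpL40* (-0.08) and *RpS27A* (-0.10), were not called either. *RpS6*, whose protein is the substrate of S6 kinase, fell by 0.13 on the log2 scale (edgeR adjusted p = 0.0920), from a median of 1433 CPM (1318 to 2007) to 1362 (1149 to 1581), and *S6k* itself fell by 0.08 (edgeR adjusted p = 0.0885). *RpS3A*, the single member on chromosome 4, fell by 0.16 (edgeR adjusted p = 0.0576).

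Line by line, the median difference over the 83 genes (second minus first, log2 TMM CPM) was -0.81 in CYC+ line 1, where 82 genes were lower, -0.34 in control line 3 (79 lower) and -0.30 in CYC- line 3 (81 lower). It was -0.19 in BUT- line 2, the line in which all 83 were lower. In BUT+ line 3 the median was 5.89e-06 with 41 lower, in control line 2 it was 0.04 with 30 lower, and in control line 1 0.07 with 16 lower. A single gene was lower in between 7 and 15 of the 15 lines, with a median of 12.

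The members nearest to 0 were *RpL41* (-0.02), *RpLP0-like* (-0.04), *RpL22* (-0.04), *RpL15* (-0.05), *RpS15Ab* (-0.06) and *RpL24-like* (-0.07), none of them called. Tested genes other than ribosomal protein genes were called lower in 13.3% and higher in 12.2% of cases. Those with up to 1000 bp of exon were called lower in 18.1% and higher in 8.68%. Those with both short exons and at least 100 CPM, 129 genes, were called lower in 21.7% and higher in 15.5%. The median log2 fold change of these 129 was -0.00353. The yolk protein genes *Yp1*, *Yp2* and *Yp3*, made in the fat body of females, moved with sample number too: with *Fbp1* they summed to a median of 65718 CPM in the first and 37804 in the second samples, lower in the second in 15 of 15 lines. All of *Yp1* (-0.56), *Yp2* (-0.64) and *Yp3* (-0.90) fell in the fit, while the muscle genes *Mhc* (0.26), *Act88F* (0.48) and *up* (0.34), the photoreceptor gene *chp* (0.20), the glial gene *nrv2* (0.19) and the antennal gene *Obp83a* (0.15) rose. Summed muscle markers were lower in the second sample in 1 of 15 lines, the glia markers in 2 and the antenna markers in 2. The neuron markers were lower in 4 lines and the photoreceptor markers in 8. Each of *chp*, *nrv2* and *Obp83a* was the 1 called of 4 markers in its list. Total counts were higher in the second sample in 9 of 15 lines. The part that depth, tissue makeup or RNA quality may have in the fall of the ribosomal protein genes was not tested.

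Lines of one treatment were then compared with each other. The fit called 1 ribosomal protein gene among lines, *RpL22* (edgeR quasi-likelihood F test, adjusted p = 0.00498), against 7.99% of all tested genes. *RpL22* (X chromosome, 762560 to 765130) encodes a large-subunit protein with a long amino-terminal extension in *Drosophila*. Its line means were 280 CPM in control line 3 and 738 and 550 in control lines 1 and 2. The libraries behind the low line were at 282 and 278, so both of its samples were low. The next lowest library was the second sample of BUT+ line 1 at 344, whose first sample was at 568, and every other library was between 437 and 804. Treatment means were 522 ± 230 (SD, n = 3 lines) in the control, 563 ± 95.5 in BUT+, 556 ± 41.8 in BUT-, 573 ± 96.5 in CYC+ and 529 ± 81.5 in CYC-. Without control line 3 *RpL22* was not called (adjusted p = 0.243 by edgeR) and no ribosomal protein gene was. Of its exon length 34.3% overlaps the non-coding gene *lncRNA:CR42491* on the same strand, and how reads in the overlap were counted is not given in the sources used here.

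**Figure D4:**
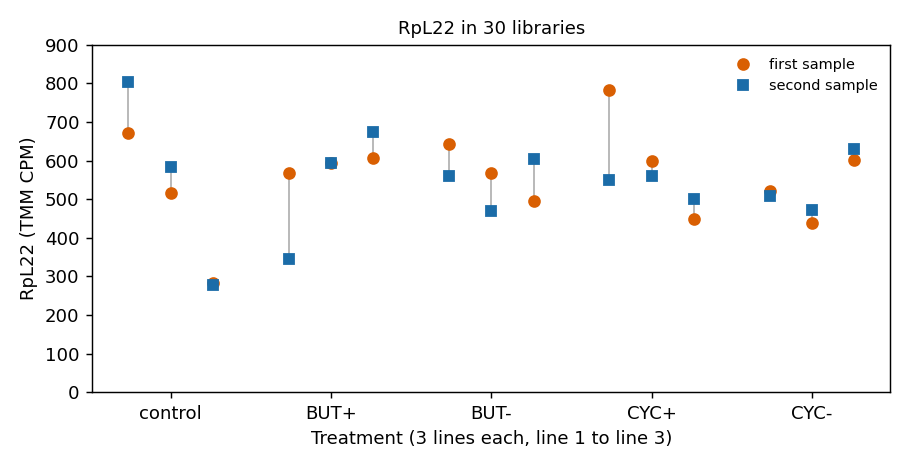
*RpL22* in TMM CPM in the 30 libraries, by treatment and line, with first (circle) and second (square) samples joined. Both samples of control line 3 lie at 278 to 282 CPM and the second sample of BUT+ line 1 at 344, below all others (437 to 804).

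Without the first sample of CYC+ line 1, 15 ribosomal protein genes (18.1%) were called among lines, where 10.4% of all tested genes were. *RpL22* (adjusted p = 0.00300 by edgeR), *RpS15Ab* (0.00425), *RpL24-like* (0.0256) and *RpS26* (0.0399) had the smallest values, and 11 (13.3%) were called without the whole line, again with 10.4% of all genes. DESeq2 called 4 with all libraries (4.82%, against 14.5% of all genes), *RpL22*, *RpLP2*, *RpS20* and *RpLP0-like*.

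By symbol, 27 of the 92 genes fell into 13 paralog sets. In 8 sets 1 gene took nearly all counts: *RpL10Ab*, *RpL22*, *RpL37a*, *RpL7*, *RpS10b*, *RpS19a*, *RpS28b* and *RpS5a* each had at least 99.5% of their set's counts in every library except *RpS5a* in 1, at 99.48%. The 9 genes that failed the filter, 940 counts in all over the 30 libraries, were the minor members of these sets, *RpL10Aa*, *RpL22-like*, *RpL37b*, *RpL7-like*, *RpS10a*, *RpS19b*, *RpS28a*, *RpS28-like* and *RpS5b*. Their mean levels were between 0.00174 CPM (*RpL10Aa*) and 0.667 CPM (*RpS5b*). Several of them, including *RpL22-like*, *RpS19b*, *RpS10a* and *RpS5b*, are known from the germ line.

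*RpS5b*, the ovary-enriched paralog of *RpS5a*, was at 5.53 CPM (179 counts) in the first sample of control line 3, 3.03 (110 counts) in the first sample of BUT- line 3 and 1.80 (47 counts) in the first sample of BUT- line 2. In the other 27 libraries it was between 0.0601 and 0.880 CPM, with a median of 0.359 (2 to 24 counts). The oocyte gene *osk* was at 2.01, 3.69 and 1.76 CPM in those 3 libraries and at most 0.917 in the others, and the 5 germline markers (*vas*, *nos*, *osk*, *aub*, *bam*) summed to 3.89, 5.79 and 2.84 CPM there and to at most 1.63 in the others. *bam* and *nos* had 0 counts in 14 and 13 of the 30 libraries. Whether tissue other than head was carried into these 3 pools was not tested.

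In the other 5 sets both members were expressed. *RpS14a* and *RpS14b* lie next to each other on the X chromosome (7933742 to 7934677 and 7934898 to 7935792) and encode the same small-subunit protein, so reads that fit both copies may have been split or dropped by the counting. *RpS14b* took 35.2% ± 1.21 (SD, n = 15 lines) of the counts of the pair, down from 36.0% in the first to 34.5% in the second samples, lower in 12 of 15 lines. *RpS14b* fell between samples (-0.20, edgeR adjusted p = 0.0281) and *RpS14a* was not called (-0.11, edgeR adjusted p = 0.161). The share was highest in the first sample of control line 2, at 41.2%, and the first sample of CYC+ line 1, at 40.3%, with the other 28 libraries between 33.4% and 36.7%. *RpL34a* took 18.3% ± 0.804 of the counts it shares with *RpL34b*, both on 3R, and was also highest in the first sample of control line 2, at 21.6%, and of CYC+ line 1, at 20.02%, with the rest between 16.7% and 19.2%. The same 2 libraries thus headed both pairs. The first sample of control line 2 had the smallest total, 21194086 counts, and its gut markers summed to 187 CPM. The first sample of CYC+ line 1 had 24909866 counts and 0.689 CPM of gut markers. In the first sample of CYC- line 3, gut markers summed to 197 CPM and the shares were 34.3% (*RpS14b*) and 18.5% (*RpL34a*). The first sample of CYC- line 1, with 23926270 counts, had shares of 36.0% and 18.6%. The part of depth or of gut tissue in the shares was not tested.

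*RpL24-like*, on 3R, whose yeast counterpart acts in assembly of the large subunit, had 15.7% ± 1.99 (SD, n = 15 lines) of the counts it shares with *RpL24*, on 2L. The share was highest in CYC+, 18.5% ± 0.481 (n = 3 lines), then 16.3% ± 0.414 in CYC-, 15.9% ± 0.906 among control lines, 14.1% ± 2.36 in BUT- and 13.9% ± 0.360 in BUT+. All 6 CYC+ libraries, from 17.5% to 20.3%, were above all control libraries (14.2% to 16.9%) and all CYC- libraries (15.01% to 17.4%), while those of BUT- spread from 11.2% to 17.4% and overlapped the control and CYC- libraries. The CYC+ share was 18.0% ± 0.510 without the first sample of CYC+ line 1, and the highest library was at 19.1%. Shares were not tested, and the gene's own change did not pass edgeR's test in any comparison of treatments with all libraries, as given above. In TMM CPM the order was CYC+ (207 ± 34.1), control (171 ± 27.7), CYC- (158 ± 1.95), BUT+ (145 ± 13.9) and BUT- (134 ± 10.7), and its 6 CYC+ libraries, from 153 to 337 with a median of 184, overlapped the control libraries, from 130 to 202 with a median of 170. Its CYC+ level was 177 ± 23.3 CPM without the first sample of CYC+ line 1. Opposite to *RpL24* lies *CG7099*, which overlaps 21.6% of its exons, and whether counting used strand is not given in the sources used here.

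*RpS15Ab*, on 2R, had 3.09% ± 0.278 (SD, n = 15 lines) of the counts it shares with the X-linked *RpS15Aa*. Its share was higher in the second than in the first sample in all 15 lines, 3.23% ± 0.296 against 2.94% ± 0.294, as *RpS15Aa* fell and *RpS15Ab* had a log2 fold change of -0.06 that was not called. *RpLP0-like*, on 2R, whose yeast counterpart is an assembly factor of the large subunit, had 1.46% ± 0.160 of the counts it shares with the stalk gene *RpLP0* on 3L. This share was lowest in the first sample of CYC+ line 1, at 0.914%, where *RpLP0* was high with the other ribosomal protein genes. It was highest in CYC-, between 1.58% and 1.81%. That range overlapped those of the control (up to 1.66%), CYC+ (up to 1.66%) and BUT- (up to 1.65%).

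**Figure D5:**
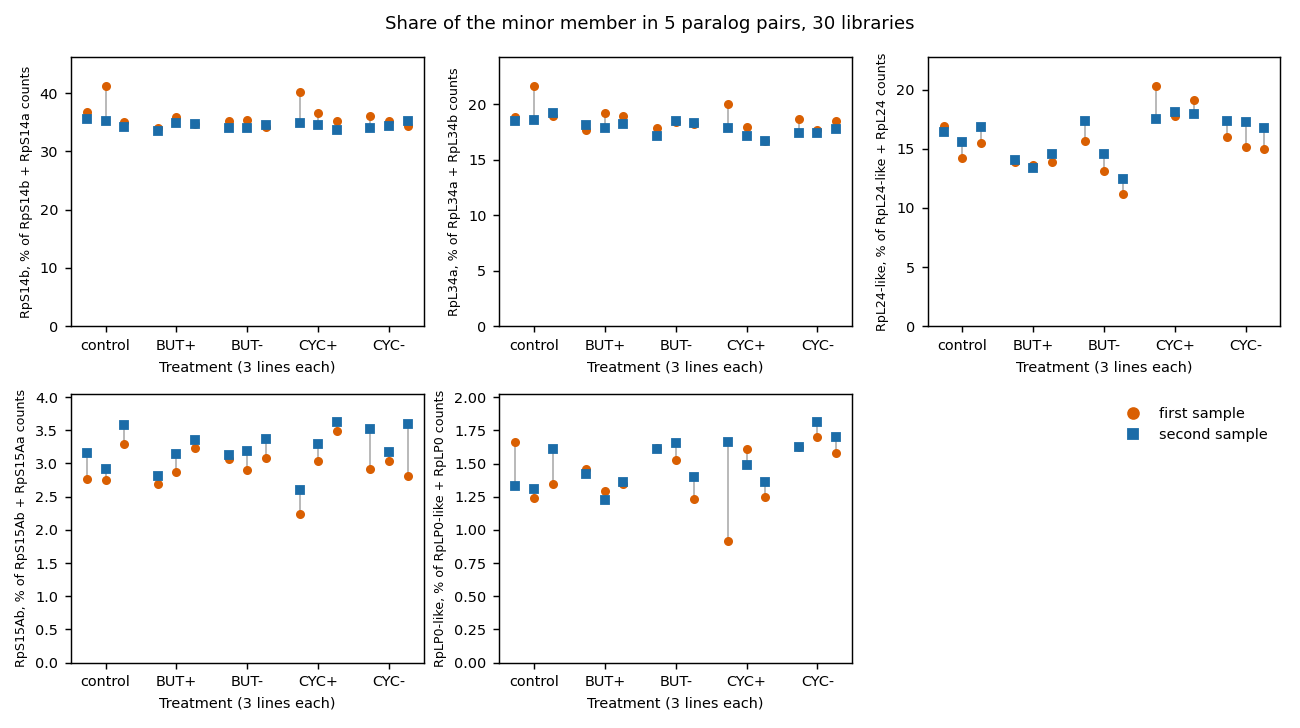
Percentage of a paralog pair's counts taken by its minor member in the 30 libraries, for the 5 pairs in which both members passed the filter, by treatment and line with first (circle) and second (square) samples joined. The first samples of control line 2 and CYC+ line 1 are highest for *RpS14b* (41.2% and 40.3%) and *RpL34a* (21.6% and 20.02%), and all CYC+ libraries lie between 17.5% and 20.3% for *RpL24-like*.

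Genes that work with the ribosome were counted from lists of other translation genes. The ribosomal proteins with other symbols, *sta* (of the small subunit) and *Rack1* (a scaffold on the small subunit), were called in none of the comparisons, with log2 fold changes of -0.06 and -0.12 between second and first samples. Of 72 tested genes of the mitochondrial ribosome, 7 rose and 1 fell from first to second sample, where 12.2% and 13.3% of all genes outside the cytosolic set did, with a median log2 fold change of 0.02 beside -0.15 for the cytosolic genes. Among treatments, 3 of the 72 rose in BUT- *vs.* control (*mRpS30*, *mRpL11* and *mRpS10*), 3 in CYC+ *vs.* control (*mRpL30*, *mRpL55* and *mRpS21*) and 1 in CYC+ *vs.* CYC- (*mRpS21*), where 4.7%, 7.02% and 1.54% of all tested genes were called in either direction. All 7 elongation factor genes and 25 initiation factor genes were tested and none was called between treatments. Between samples, *Ef1alpha100E*, a form of the factor that brings tRNA to the ribosome, rose (0.09, edgeR adjusted p = 0.0478), while *eIF-5A* (-0.12, edgeR adjusted p = 0.0879) and *eIF3-S10* fell. That was 2 of 7 elongation and 1 of 25 initiation factor genes, where 25.8% of all tested genes were called in either direction.

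Of 29 genes of ribosome biogenesis and RNA polymerase I, 9 were called among lines of a treatment, where 7.99% of all tested genes were. They were *Fib*, *nop5*, *Nop56* and *Nop60B* of the small nucleolar ribonucleoproteins, the polymerase subunits *RpI1* and *RpI135*, and *pit*, *wcd* and *mbm* of the nucleolus, against 1 of 83 ribosomal protein genes. In CYC+ *vs.* CYC- 2 fell, *Nop60B* (-0.42, edgeR adjusted p = 0.0976) and *RpI1* (-0.29, edgeR adjusted p = 0.0976), where 1.54% of all tested genes were called, and from first to second sample *Nmd3* (-0.13) and *Ns1* (-0.14) fell, where 13.7% of all tested genes did. Of 20 known growth regulators of ribosomal protein genes, *Myc*, the transcription factor that drives ribosome production, fell in BUT+ *vs.* control (-0.44, edgeR adjusted p = 0.0939), 1 of 20 beside 2.99% of all tested genes. It also fell when CYC+ was compared with the control (-0.41, edgeR adjusted p = 0.0802), as did *larp* and *Mnt*, by 0.23 each on the log2 scale, 3 of 20 beside 7.02%. In BUT- *vs.* control *S6k*, the kinase of RpS6, fell (-0.25, edgeR adjusted p = 0.0771), *Thor*, the inhibitor of eIF4E, fell (-0.55, edgeR adjusted p = 0.0554), and *gig*, a brake on Tor, rose by 0.11 (edgeR adjusted p = 0.0972), 3 of 20 beside 4.7%. No other member of these lists was called in the 6 treatment comparisons.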

How the data were processed

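Whole heads were sequenced by the authors as cDNA libraries on an Illumina HiSeq, and reads were trimmed with Trim Galore! and Cutadapt and aligned with STAR. The deposited values are whole-number read counts per gene, without normalization or filtering. The counting tool, the use of strand and the handling of multi-mapping reads are not given in the sources used here, so counts of paralogs and overlapping genes are uncertain.

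Symbols were matched in the files, with 87 of the 92 genes matched by identifier to the release 6 annotation used for positions and exon lengths and 5 by symbol. Coordinates are from that annotation. The ribosomal protein genes and the other lists were chosen with earlier results of these data known.

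The 9240 genes that reached 1 CPM in 15 or more libraries were fitted in edgeR 4.0.16 (R 4.3.3, TMM, quasi-likelihood) with 5 treatment means, lines pooled as in the study's methods. A gene was called where its p, adjusted by Benjamini-Hochberg over all tested genes, was under 0.1. Pooling lets both libraries of a line enter as replicates, so these p-values measure the spread between libraries more than between lines. Sample number was tested in a fit with 15 line means, and lines of a treatment by an F test in the fit without sample number. Each SE was obtained from the fold change and its F statistic (absolute log2 value over root F). Log2 CPM used an added 0.5. A joint level is the percentage of a library's gene counts, and a paralog share the percentage of a set's counts, where a set holds symbols that are equal after removal of a final lower-case letter, "-like" or hyphenated digit. Joint levels and shares are descriptions without a test.

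Named genes are every member of a paralog set, up to 6 called members with the smallest adjusted p per test, the 3 highest and 3 lowest per kilobase and the members that failed the filter. Others were named after their values were seen. The functions were tested on simulated data. Alternatives were RLE size factors, library sizes without the ribosomal protein genes, DESeq2 1.42.0, limma 3.58.1 (voom, line as random block), other filters and thresholds, subsets of libraries and sample number or line number as a block. Totals were 21194086 to 38621924 counts, so 1 CPM is 21.2 reads in the smallest library. Sequences were not analysed here.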

Additional observations from a re-analysis of the deposited data

Results flagged for a closer look

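Of 70 sets of 6 libraries checked for a library far from the rest, 9 held one, where chance gives about 1 in 20 and where the 2 libraries of a line are not independent. The genes checked included *RpL22* and the 6 with the smallest adjusted p between samples. They were picked from these same libraries, so the rate of 1 in 20 is no fair background for them. The first sample of CYC+ line 1 was far above the other CYC+ libraries for 4 of those 6 genes. They were *RpS15* at 2017 CPM (others 833 to 1147), *RpS28b* at 1119 (559 to 749), *RpS15Aa* at 1213 (675 to 862) and *RpL29* at 566 (289 to 392). The first sample of control line 2 was far above the other control libraries for the *RpS14b* share, 41.2% (34.1% to 36.7%), and the *RpL34a* share, 21.6% (18.5% to 19.2%).

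*RpL22* in the second sample of BUT+ line 1 was at 344 CPM, far below the other BUT+ libraries (568 to 673). *RpS5b* was at 5.53 CPM in the first sample of control line 3 (others 0.231 to 0.697) and at 0.880 CPM in the first sample of BUT+ line 1 (others 0.216 to 0.453).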

How the results depend on the processing

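The fall from first to second sample was called in 36 genes at an adjusted p under 0.05, in 43 to 66 with a line left out and in 42 with treatment means in place of line means (no replicate block), all lower; 35 genes were called in all 24 fits. Its 6 leading genes were called in all 23 alternatives. No ribosomal protein gene was called in BUT+ *vs.* control, BUT+ *vs.* BUT- or the regime difference in any alternative run. With a line left out the counts were 0 to 2 in BUT- *vs.* control, 0 to 1 in CYC- *vs.* control, 0 to 2 in CYC+ *vs.* CYC- and 0 to 11 among lines. For most of these alternatives the share of all tested genes called is not given here. The treatment and line counts are therefore not read as a result about the set.

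In BUT- *vs.* control DESeq2 and the fit without the first sample of CYC+ line 1 called 1 each, and the fit of only the 12 libraries compared called 2. In CYC- *vs.* control 1 was called from the second samples alone. CYC+ *vs.* control had 1 without the first sample of CYC+ line 1, and in CYC+ *vs.* CYC- 2 by DESeq2. Among lines DESeq2 called 4, and 15 were called without that library. The CYC+ *vs.* control joint level (log2 ratio 0.02) was -0.14 from the second samples alone. Leaving that library out was chosen after seeing the data. For these alternative treatment comparisons, too, the shares of all tested genes are not given here.

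Sample number as a replicate block called 1 gene in BUT- *vs.* control and 3 among lines (12.7% of all genes). With the first sample of CYC+ line 1 left out as well, it called 6 genes in BUT-, 3 in CYC+ and 5 in CYC- against the control, all lower. The share of all tested genes called in these treatment comparisons is not given here. These counts are therefore not read as a result about the set. For each treatment, the mean deviation of its first samples from the treatment mean was taken gene by gene. These deviations correlated between 0.0157 and 0.772 over 10 pairs of treatments, all positive. As some values were low and no label gives a shared day or batch, the numbers were not taken to pair the samples. Sample number itself was called in 25.8% of all tested genes, and the main treatment fits leave it in the spread between libraries. Line number as a replicate block called none in the treatment comparisons. With the 2 libraries of a line summed, so that lines were the replicates, none was called in any treatment comparison, and of all 9242 genes between 0 and 145 were. The cause of these differences was not tested. Whole heads do not resolve changes within one cell type, and 3 lines per treatment limit the precision.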
